A study of Mus musculus with 2 samples.

Results

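Levels of 6 genes of the mouse major histocompatibility complex (MHC) and its antigen presentation pathway were described in brown adipose tissue: the MHC class II chains H2-Aa, H2-Ab1 and H2-Eb1, the invariant chain Cd74, and the Qa-region class I genes H2-Q6 and H2-Q7. The 6 genes were chosen from the FPKM values of the same 2 libraries that are described here, with the direction of their difference known, so their values are a description and support no test. They were found by gene identifier among the 628 genes of the deposited table. One library came from an fl/fl sample and one from a 3bKO sample, both C57BL/6 mice fed a diet labelled 60% high fat for 20 weeks. The labels do not spell out 3bKO, and name neither the Cre driver, the sex, the age nor the number of mice behind a library. The deposited table carries the names D3b and Myf5 in its title without assigning them to its columns, and the genotypes were taken from the column headings, which hold the sample titles. Dnmt3b, the DNA methyltransferase gene that D3b may stand for, had no row in the table, so the labels were not checked against a targeted gene.

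MHC class II molecules are pairs of an alpha and a beta chain that present peptides from endocytosed proteins to CD4+ T cells. They are made mainly by macrophages, dendritic cells and B cells. The invariant chain holds the new pair in shape and blocks its groove until proteases cut it away in the endosome, where H2-DM exchanges the last fragment for a peptide. H2-Aa and H2-Ab1 encode the chains of the I-A molecule, and H2-Eb1 encodes the beta chain of I-E, whose alpha chain gene H2-Ea is not functional in C57BL/6 mice. Class I molecules present peptides from the cytosol, each as a heavy chain with beta-2 microglobulin. H2-Q6 and H2-Q7 are nonclassical class I genes of the Q region, and H2-Q7 encodes the Qa-2 antigen, which is held in the membrane by a lipid anchor. In adipose tissue, class II and Cd74 are known from macrophages and other resident leukocytes.

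All 6 genes had higher FPKM in the 3bKO library, in a table in which 81.5% of the 628 genes were higher in 3bKO. FPKM counts the fragments of a gene per kilobase of transcript and scales them to the number of mapped fragments, so that levels of different genes can be set side by side within a library. The class II genes and Cd74 stood at moderate to high levels in both libraries and differed by about the same factor, from 1.98-fold for H2-Aa to 2.29-fold for H2-Eb1. H2-Q6 and H2-Q7 stood at 0.01 FPKM in fl/fl, the lowest value of the table and a floor, and above 7 FPKM in 3bKO. With 1 library per genotype there was no replicate error, so that each ratio compares 2 libraries and not 2 genotypes, and no test was made.

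**Figure D1:**
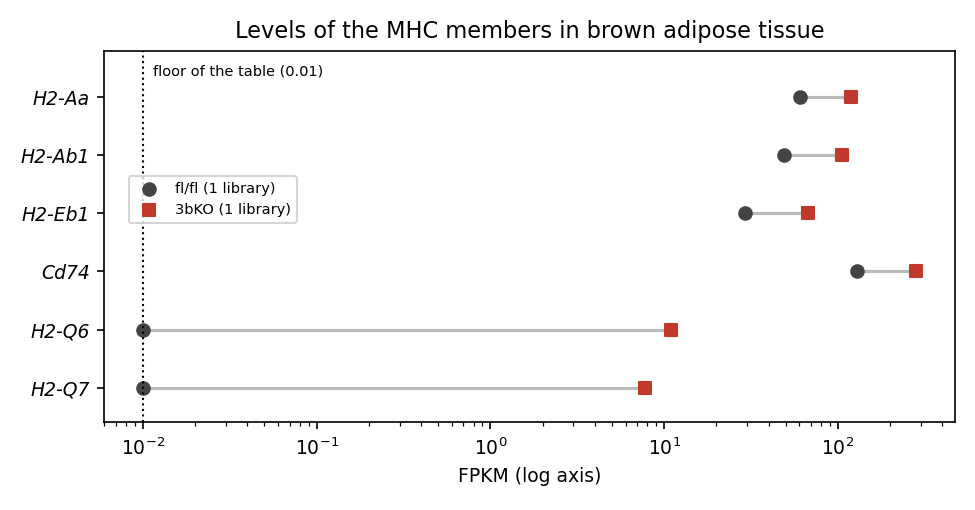
FPKM of the 6 genes on a log axis, with 1 point per library (circle, fl/fl; square, 3bKO) and the floor of the table as a dotted line. The class II genes and Cd74 lie between 29.2 and 282 FPKM with similar gaps between the libraries, whereas H2-Q6 and H2-Q7 lie on the floor in fl/fl and at 10.97 and 7.72 FPKM in 3bKO.

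Among the class II chains, H2-Aa, the alpha chain of I-A, had the highest level, at 60.4 FPKM in fl/fl against 120 FPKM in 3bKO (log2 ratio 0.99). Its partner H2-Ab1, the beta chain of I-A, had 48.7 FPKM in fl/fl against 106 FPKM in 3bKO (log2 ratio 1.12). The alpha and beta chains of I-A were therefore listed at similar levels, with an H2-Aa to H2-Ab1 ratio of 1.24 in fl/fl and 1.13 in 3bKO. H2-Eb1, the beta chain of I-E, had 29.2 FPKM in fl/fl against 66.9 FPKM in 3bKO (log2 ratio 1.20). Its level stayed below that of H2-Ab1 in both libraries, at 0.60 of it in fl/fl and 0.63 in 3bKO. H2-Ea, which would encode its partner, had no row in the table, and neither had H2-Eb2, another beta chain gene.

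Cd74 had the highest level of the 6 genes, at 128 FPKM in fl/fl against 282 FPKM in 3bKO (log2 ratio 1.14). It ranked 25 among the 628 genes in fl/fl and 13 in 3bKO. Relative to H2-Ab1 its level was 2.64 in fl/fl and 2.67 in 3bKO, and relative to the 3 class II chains together it was 0.93 and 0.97. The proportions among the class II chains and the invariant chain thus differed little between the libraries, by less than the factor that separated the libraries for any of them. Summed, H2-Aa, H2-Ab1 and H2-Eb1 came to 138 FPKM in fl/fl against 292 FPKM in 3bKO, a ratio of 2.11.

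Of the 605 genes above the floor in both libraries, 45.6% were more than 2-fold higher in 3bKO. Of the 4 members with a ratio, 3 were past this limit, namely H2-Ab1, H2-Eb1 and Cd74, and H2-Aa lay just below it. The median log2 ratio of the 4 was 1.13, beside a median of 0.95 and quartiles of 0.57 and 1.61 over the 605 genes. The 4 members spanned 0.21 on the log2 scale, a span that also held 67 of the 605 log2 ratios, the members included. Their ratios ranked between 216 and 282 from the top. FPKM values are relative within a library. By their position in the table, itself a list selected for difference, these genes lay slightly above the middle. The table holds no absolute log2 ratio under 0.50 among these 605 genes.

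The 5 genes outside the members whose log2 ratio lay nearest to the median of the class II genes and Cd74, among genes at 1 FPKM or more in both libraries, were Nek6, Fndc1, Synm, Lgals3 and Lyz2. This likeness is a distance of up to 0.013 between log2 ratios over 2 libraries, and many genes of the table share a ratio by this measure. Lyz2, the lysozyme of macrophages and other myeloid cells, had 118 FPKM in fl/fl against 259 FPKM in 3bKO. Lgals3, the lectin galectin-3 that macrophages express strongly, had 22.04 FPKM and 48.5 FPKM. Nek6 encodes a mitotic kinase, Synm the muscle intermediate filament protein synemin and Fndc1 a protein with fibronectin domains, with 3bKO levels of 11.9, 8.52 and 5.65 FPKM against 5.46, 3.89 and 2.58 FPKM in fl/fl.

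Genes that load class II molecules were partly in the table. Of 11 genes for loading and proteolysis, 3 were listed, all of them higher in 3bKO, with 2 past the 2-fold limit. A rise was the common direction, shown by 81.5% of all listed genes. The limit itself was passed by 45.6% of the 605 genes above the floor in both libraries. H2-DMb1, the beta chain of H2-DM, had 5.51 FPKM in fl/fl against 11.7 FPKM in 3bKO, which is 0.11 of the H2-Ab1 level in each library. Ctss, the protease cathepsin S that trims the invariant chain, had 24.6 FPKM in fl/fl against 60.6 FPKM in 3bKO (log2 ratio 1.30). Lgmn, the endosomal protease legumain, had 32.8 FPKM and 47.7 FPKM (log2 ratio 0.54). Of 8 class II regulators, among them Ciita, the coactivator that switches on class II transcription, and Rfx5, a subunit of the factor that binds the X box, 0 were listed. Of 6 costimulatory ligands such as Cd80, Cd86 and Cd40, 0 were listed. A gene without a row has no value here and cannot be called changed or unchanged.

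H2-Q6 had 0.01 FPKM in fl/fl against 10.97 FPKM in 3bKO, and H2-Q7 had 0.01 FPKM and 7.72 FPKM. A value of 0.01 can be an estimate of no reads, so no fold change is given for either gene. The floor was rare in fl/fl, where 3.18% of the 628 genes stood on it. By 3bKO level H2-Q6 ranked 4 and H2-Q7 ranked 7 among these 20 genes. The 3 genes above H2-Q6 were Tnnt1, Myl3 and Ankrd2, which are all genes of striated muscle, at 48.6, 21.5 and 12.1 FPKM. The lowest values above the floor were 0.02 FPKM in fl/fl against 0.08 FPKM in 3bKO.

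Other class I genes were well above the floor in both libraries. H2-Q4, a neighbor of H2-Q6 in the Q region, had 36.4 FPKM in fl/fl against 54.2 FPKM in 3bKO (log2 ratio 0.57). H2-D1, the classical heavy chain of the D region, had 199 FPKM and 296 FPKM (log2 ratio 0.57). B2m, the beta-2 microglobulin that all class I heavy chains need, had 823 FPKM and 1203 FPKM (log2 ratio 0.55). These 3 genes thus had nearly equal ratios, all of them higher in 3bKO but below that of H2-Aa and below the median of the table. Centred on that median, H2-Q4 had a log2 ratio of -0.37. The median is no neutral reference, since the table was selected for difference and 81.5% of its genes were higher in 3bKO. H2-Q6 and H2-Q7 together made up 5.06% of the FPKM of the 4 listed heavy chains in 3bKO. Adding them to H2-Q4 gave 36.4 FPKM in fl/fl against 72.9 FPKM in 3bKO, a ratio of 2.002 in place of 1.49 for H2-Q4 alone. Of 14 class I loading genes only Psmb8, a subunit of the immunoproteasome, was listed, at 6.48 FPKM in fl/fl against 13.6 FPKM in 3bKO. H2-Q8 and H2-Q9, further genes of the Q region, H2-K1, the classical heavy chain of the K region, and the peptide transporter genes Tap1 and Tap2 had no row.

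The class I genes resemble each other so closely that short reads cannot always be given to one of them. In the GENCODE vM1 transcripts the coding sequence of H2-Q6 matched that of H2-Q7 at 950 of 1002 aligned bases (94.8%) and that of H2-Q4 at 90.5%. Of all stretches of 50 bases in the longest H2-Q6 transcript, 23.2% occurred in a transcript of another gene, and of those in H2-Q7 27.0% did. Not all sharing was with class I genes. For H2-Q6, 284 stretches occurred in H2-Q7, 134 in H2-Q4 and 111 in H2-D1, but also 75 in Nlrp1a and 64 in Cd59b. With stretches of 90 bases the shares were 11.8% and 13.2%. H2-Q7 shared 20.7% of its stretches of 50 bases with H2-Q6, 8.98% with H2-D1 and 2.63% with H2-Q4. For H2-Aa, H2-Ab1, H2-Eb1 and Cd74 the count of shared stretches was 0 at both lengths. No read length was found in the labels, and how RSEM divided fragments between H2-Q6, H2-Q7 and their relatives was not tested. The levels of the Q genes are therefore uncertain when taken singly. Only stretches identical in every base were counted as shared. No count with H2-Q8 or H2-Q9 is given here, and how closely these genes match H2-Q6 and H2-Q7 was not tested. The shares of 23.2% and 27.0% may therefore be too low, and do not show that the remaining stretches name a single gene. Whether the rest of each transcript was particular to its gene for reads aligned with mismatches was not tested.

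**Figure D2:**
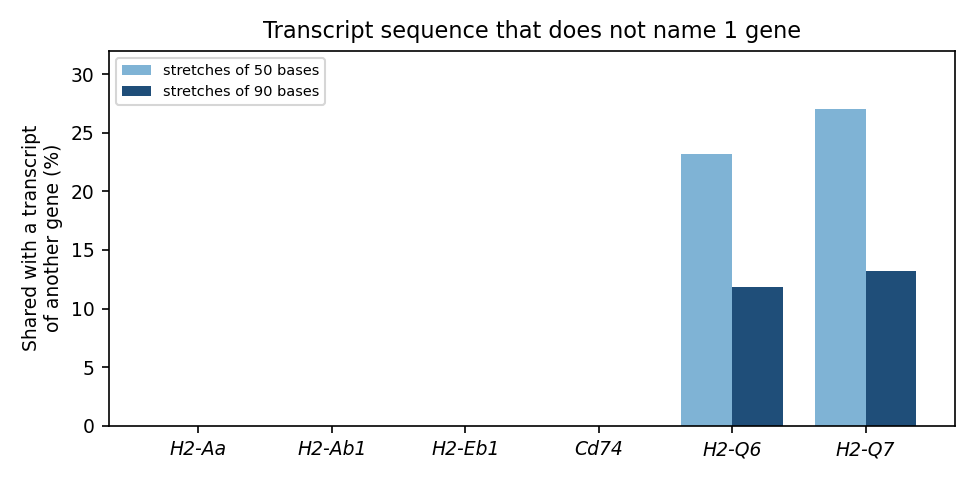
Share of all stretches of 50 bases (light bars) and 90 bases (dark bars) in the longest transcript of each gene that also occur, on the same strand, in a protein-coding transcript of another gene. H2-Q6 reached 23.2% and H2-Q7 27.0% at 50 bases, whereas the class II genes and Cd74 were at 0. How closely H2-Q8 and H2-Q9 match H2-Q6 and H2-Q7 was not tested, so the bars of the Q genes may be too low.

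In GRCm38 (mm10) the class II trio lies together on chromosome 17. H2-Ab1 (gene identifier 14961) runs from 34263227 to 34269418, H2-Aa (14960) from 34282744 to 34287823 and H2-Eb1 (14969) from 34305867 to 34316674, a stretch of 53.4 kb in all. H2-Q6 (110557) lies 1108 kb further on, from 35424850 to 35430055, and H2-Q7 (15018) from 35439140 to 35443773, with 9.08 kb between them. Cd74 (16149) is the only member outside this chromosome, on chromosome 18 from 60803849 to 60812652. Its ratio lay within the range of the class II chains.

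The MHC region from H2-K1 to H2-M2 (chromosome 17, 33996012 to 37483554) held 169 protein-coding genes in the RefSeq annotation, of which 15, or 8.88%, were listed. Over all chromosomes 611 of 21900, or 2.79%, were listed. Of the 15 genes 14 were higher in 3bKO, in a table in which 81.5% of the 628 genes were higher. The 15 include the 5 members on chromosome 17, which were chosen with their direction known, so both counts are raised by that choice. The 1 lower gene was Hspa1b, an inducible heat shock protein, at 3.94 FPKM in fl/fl against 1.19 FPKM in 3bKO. Between the class II trio and the Q region the complement genes C4b and Cfb had 7.55 and 6.55 FPKM in fl/fl against 13.3 and 11.3 FPKM in 3bKO. Hspa1b and C4b each have a near-identical copy beside them, Hspa1a and C4a, so that their reads may be shared. The listed ratios differed along the region. H2-D1 and H2-Q4, close to H2-Q6 on the same side, had the smallest ratios among the higher genes of the region. Each ratio rests on 1 library per genotype, and whether the region differed as a whole was not tested. Genes of 1 region are not independent of each other, and neither count was tested.

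**Figure D3:**
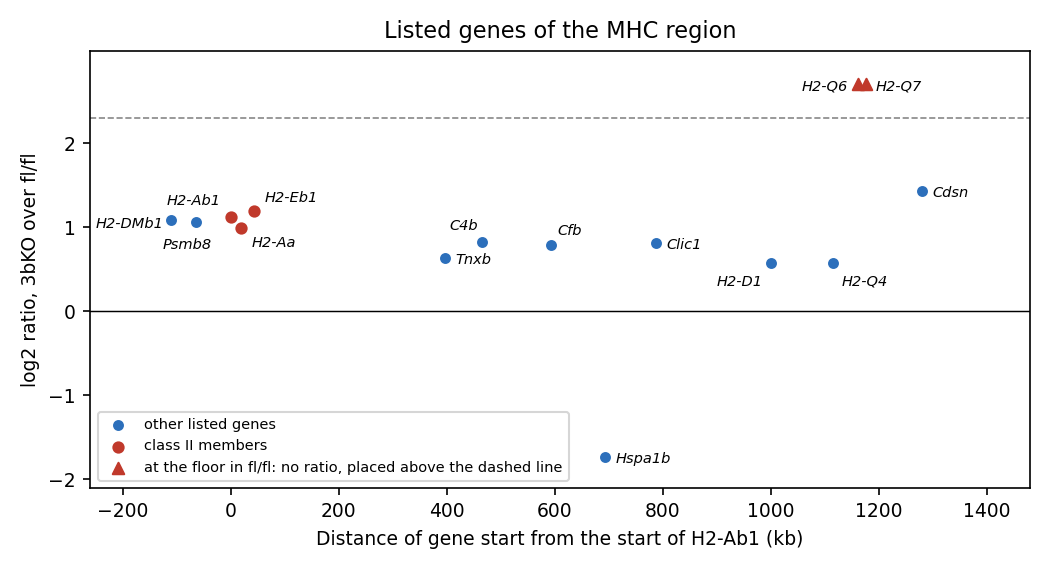
Log2 ratio of FPKM, 3bKO over fl/fl, of the 15 listed genes of the MHC region against the distance of each gene start from that of H2-Ab1. The class II genes lie near a log2 ratio of 1.1, H2-D1 and H2-Q4 at 0.57, and H2-Q6 and H2-Q7, which have no ratio because of the floor, stand above the dashed line.

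The promoters of the members were searched for the elements by which these genes are known to be controlled. RefSeq promoter sequences, from 250 bases before to 50 after the start in GRCm38.p6, were matched for 4 of the 6 members, H2-Aa, H2-Eb1, H2-Q6 and H2-Q7. Class II promoters are known for an X box, bound by the RFX complex, and a Y box, bound by NF-Y, at a fixed distance on which the coactivator CIITA is assembled. The letters searched were GCAAC, the core of the X box, followed on the same strand after 20 to 35 bases by ATTGG, the Y box. This spacing was set after the sequences had been read. H2-Aa and H2-Eb1 both held the pair on the strand of the gene, with 28 and 27 bases between the elements, beside 0.794% of 32851 promoters with the pair on either strand. In H2-Aa, TGACGTCA, the letters bound by CREB, also stood between them without overlap, and 1.79% of promoters hold these letters. The windows are shown because they carry this common layout, with the elements in capitals. That of H2-Aa is chr17:34287859-34287913 on the minus strand and that of H2-Eb1 is chr17:34305767-34305824 on the plus strand.
H2-Aa: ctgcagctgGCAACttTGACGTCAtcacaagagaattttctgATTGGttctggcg
H2-Eb1: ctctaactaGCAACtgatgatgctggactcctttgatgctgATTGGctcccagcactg
In both windows the Y box follows the X box core toward the gene, 48 bases before the start in H2-Aa and 59 in H2-Eb1. A match is a description of the letters and not of a bound factor.

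For H2-Q6 and H2-Q7 the letters searched were those of class I promoters: GGGGATTCC, part of the enhancer A to which NF-kB binds, TTTCACTTC, part of the interferon response element, and ATTGG on either strand. Both genes held all of them in the same order, and so did H2-D1. H2-Q4 held TTTCACTTC and ATTGG but not GGGGATTCC in its window. Of all promoters 0.25% hold GGGGATTCC, 0.505% hold TTTCACTTC and 37.4% hold ATTGG, on either strand and without overlap here. The windows are shown because the 2 genes, both on the floor in fl/fl, have near-identical promoters. That of H2-Q6 is chr17:35424675-35424814 and that of H2-Q7 is chr17:35439020-35439154, both on the plus strand, with the letters searched in capitals.
H2-Q6: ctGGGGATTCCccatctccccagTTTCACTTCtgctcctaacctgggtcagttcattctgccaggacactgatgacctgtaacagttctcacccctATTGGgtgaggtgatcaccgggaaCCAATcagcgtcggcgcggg
H2-Q7: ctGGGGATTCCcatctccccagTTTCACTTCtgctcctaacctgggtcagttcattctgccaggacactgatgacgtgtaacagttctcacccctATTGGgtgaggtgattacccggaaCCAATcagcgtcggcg
Over the 250 bases before the start, 205 of 210 aligned bases were identical between H2-Q6 and H2-Q7. The promoter of H2-Q7 is counted from a start at 35439155, 15 bases inside the gene as placed above, so that the last 15 bases of its window belong to the annotated gene. TTTCACTTC stood 152 bases before the start of H2-Q6, and 98 bases before the first base of the H2-Q7 gene. The pair of X box core and Y box was not found at the set spacing in either window.

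Marker genes of other cell types were listed beside these values, since a bulk library cannot tell more cells of a type from more RNA per cell. Of 14 macrophage markers 11 were listed, all of them higher in 3bKO, with 5 past the 2-fold limit. Their ratios ran from 1.81 to 3.35, with a median log2 ratio of 0.95. This median was nearly equal to that of the 605 genes above the floor in both libraries, also 0.95. Of those 605 genes, 45.6% passed the 2-fold limit, so the markers lay near the middle of the list. The summed level of the 11 markers was 285 FPKM in fl/fl against 594 FPKM in 3bKO, and 0 of the 11 stood on the floor. C1qa, C1qb and C1qc, the chains of complement C1q made by resident macrophages, had 33.5, 36.5 and 39.7 FPKM in fl/fl against 68.6, 70.4 and 73.5 FPKM in 3bKO. The 3 class II chains together came to 0.48 of the summed macrophage level in fl/fl and 0.49 in 3bKO. Lyz2 alone made up 118 of the 285 FPKM in fl/fl and 259 of the 594 FPKM in 3bKO. H2-Ab1 came to 1.46 times the level of C1qa in fl/fl and 1.54 times in 3bKO. Cd74 came to 1.09 times the level of Lyz2 in both. Lyz2 is also among the 5 genes named above for the nearest ratio, so this equality only restates that likeness. Of 10 dendritic cell, 7 B cell and 9 T and NK cell markers, 0 were listed. Of all protein-coding genes only 2.79% were listed, so the missing rows do not show that these cells were absent. The part of the macrophages in the class II and Cd74 values was not tested.

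Of 26 interferon response genes 2 were listed, Gbp2, a guanylate-binding protein, at 12.4 FPKM in fl/fl against 19.4 FPKM in 3bKO, and Iigp1, an immunity-related GTPase, at 6.93 FPKM and 11.2 FPKM. Their log2 ratios were 0.64 and 0.69, both below the median of 0.95 over the 605 genes above the floor in both libraries. A higher value in 3bKO was common to 81.5% of all listed genes. The table also holds interferon-induced genes outside this list, found after the values were seen: Gbp10, at 0.07 FPKM in fl/fl against 2.05 FPKM in 3bKO, Ifi204 at 5.52 FPKM and 10.6 FPKM, and Ifi207 at 8.82 FPKM and 15.3 FPKM. These genes are examples and not a full search, and only Gbp10 lay above that median. Gbp10 has close relatives in the Gbp family, among which reads may be shared.

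Markers of brown adipocytes and skeletal muscle were also looked up. Of 8 brown adipocyte markers 2 were listed, Dio2 and Ppargc1a, both lower in 3bKO, with 80.5 FPKM summed in fl/fl against 38.1 FPKM in 3bKO. Ucp1, the uncoupling protein that defines brown fat, had no row. In a list selected for difference a gene without a row has no known level, so the tissue label could not be checked in this way. All 12 skeletal muscle markers were listed and higher in 3bKO, with ratios from 19.5 to 123 and 56.8 FPKM summed in fl/fl against 1907 FPKM in 3bKO. Among them were Acta1, skeletal muscle actin, and the fast troponin Tnnt3. The 2 libraries thus also differed in muscle and brown adipocyte transcripts, and the part of this in the values of the 6 members was not tested.

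**Figure D4:**
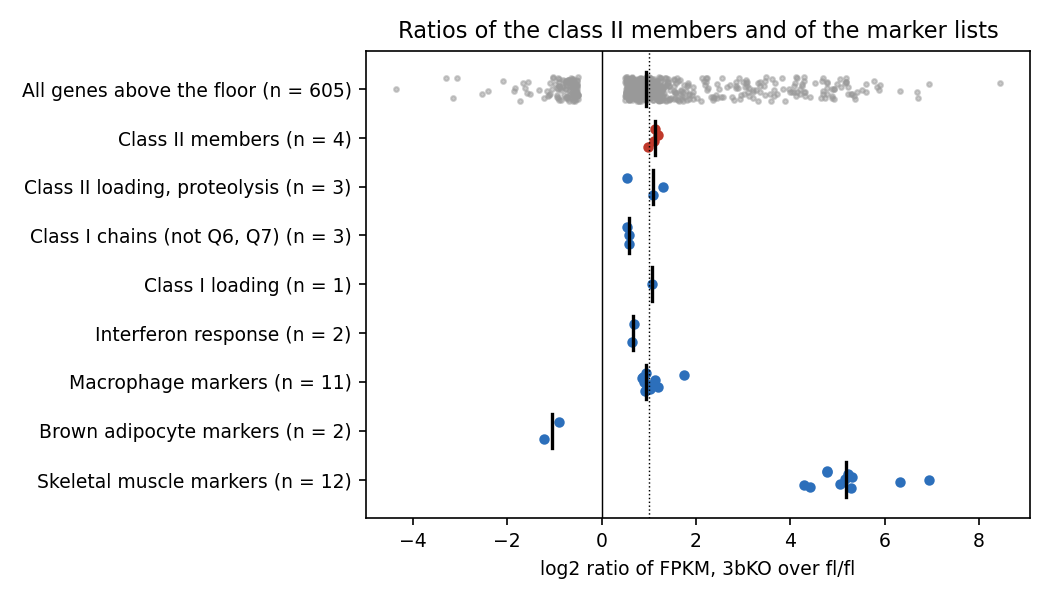
Log2 ratio of FPKM, 3bKO over fl/fl, for all 605 genes above the floor, the class II members with Cd74, and the listed genes of the other lists (1 point per gene; black bar, median; dotted line, 2-fold). The class II members lie among the macrophage markers at about 1, the class I chains near 0.57 and the muscle markers at a median of 5.18.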

How the data were processed

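RNA was extracted from brown adipose tissue, and mRNA was selected with oligo(dT) beads and sequenced. The deposited values are FPKM calculated by the authors; their processing notes name RSEM and mm10 without versions. The deposited table is a filtered list whose filter, and the depth of the libraries, are not given in the sources used here. Columns were assigned to samples by heading.

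Identifiers were paired with symbols from RefSeq (GRCm38.p6), and 627 of 628 matched. Ratios are 3bKO over fl/fl, with no pseudocount and none for genes at 0.01. The members and 13 gene lists were chosen with earlier results of these data known. Named were the members, all listed genes of 6 antigen presentation lists, up to 4 per other list by mean FPKM, and the 5 nearest ratios; Hspa1b, C4b, Cfb, Tnnt1, Myl3, Ankrd2, Gbp10, Ifi204 and Ifi207 were named after their values were seen. Shared stretches and coding identity came from GENCODE vM1 transcripts, and the counting of shared stretches was tested on simulated sequences. Alternative fold limits, pseudocounts, a minimum of 1 FPKM and centring on a median were tried. Python 3.11.15, NumPy 2.4.6, pandas 2.3.3, Biopython 1.88 and Matplotlib 3.10.9 were used.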

Additional observations from a re-analysis of the deposited data

How the results depend on the processing

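More than 2-fold higher were 3 of the 4 members with a ratio and 3 of the 7 other listed antigen presentation genes. The share over the 605 genes above the floor in both libraries was 45.6%. Both counts became 0 with a limit of 3-fold, which 155 of the 605 genes passed. Both also became 0 when ratios were centred on the median of all listed genes, where 129 of the 605 still passed 2-fold. Centring on the median of the listed macrophage markers also brought the count of members to 0. Centred on all listed genes, the log2 ratios were 0.042 for H2-Aa, 0.17 for H2-Ab1, 0.25 for H2-Eb1 and 0.19 for Cd74. The 2 medians were nearly equal, so that centring on the macrophage markers gave 0.041, 0.17, 0.25 and 0.19 as well. These shifts follow from the subtraction of a median log2 ratio of 0.95. H2-Q4, added after the data were seen, turned from 0.57 to -0.37 with centring on all genes. The other 17 of 31 alternatives, among them a limit of 1.5-fold, pseudocounts of 0.1 and 1 and a minimum of 1 FPKM, kept direction and moved a fold value or a count by no more than 1.5 times. Among them H2-Q4 summed with H2-Q6 and H2-Q7 went from a log2 ratio of 0.57 to 1.001, just past 2-fold. That upward shift was fixed in advance, since both added genes stand on the floor in fl/fl only. H2-Q6 and H2-Q7 were left out of these counts, and their sum alone stands on the floor in fl/fl. With a pseudocount of 0.1 their log2 ratios would be 6.65 and 6.15, and with 1 they would be 3.57 and 3.11, values that the pseudocount sets, and 5 members would then be past 2-fold. No paired analysis was possible because each genotype has 1 library. None of these settings stands in for a second animal of either genotype, and the depth behind each value is unknown.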
